A study of Mus musculus with 8 samples.

Results

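The 37 genes described here encode the adhesion molecules that hold synapses together and the scaffold proteins beneath the postsynaptic membrane. They were listed by symbol as neurexins, neuroligins, Shank, Dlg and Homer genes and other synaptic organizers, and all 37 were found among the 24421 gene rows of the count tables. They were compared between 4 KO and 4 Control libraries of ribosome-bound RNA. KO mice carried Otp-Cre, floxed Cic on both alleles and the ROSAfsTRAP allele. Control mice carried Otp-Cre and ROSAfsTRAP, with no floxed Cic in their label. All mice were of the C57BL/6 strain, and their age, their sex and the number pooled per library are not given in the labels. The Otp promoter drives Cre in cells whose lineage expressed Otp, a homeodomain factor of the hypothalamus and medial amygdala. In those cells Cre turns on a tagged ribosomal protein, and in KO mice it also recombines floxed Cic, which encodes the repressor Capicua. Hypothalamus with medial amygdala was the tissue taken, and RNA was recovered through the tagged ribosomes, so RNA of other cells can be carried along.

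Neurexins and receptor phosphatases sit on the axon side of a synapse and bind partners across the cleft: neuroligins, LRRTM and SLITRK proteins, IL1RAPL1, or secreted cerebellins. On the dendrite side, Dlg proteins such as PSD-95 bind the tails of these adhesion molecules and of glutamate receptors. Dlgap proteins link Dlg proteins to Shank proteins, and Homer proteins tie Shank proteins to metabotropic glutamate receptors and to the actin skeleton. Many of these genes are known for variants linked to autism and intellectual disability.

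No synaptic adhesion or scaffold gene passed the test of KO against Control over all genes. The nearest were a pair of scaffold genes whose proteins bind each other, Dlgap3 and Shank3, both below all Control libraries in each KO library (fold 0.665 for Dlgap3 and 0.673 for Shank3). Over all 15438 genes tested, 0.194% were called higher and 0.0648% lower in KO at an edgeR adjusted p of 0.05. All 37 members passed the low-count filter and were tested, and 0 were called in either direction. With DESeq2 on the same counts 0 were higher and 2 were lower, Dlgap3 and Shank3, beside 200 of 15438 genes called in either direction. At an unadjusted edgeR p of 0.05, 8 members passed (21.6% of 37), 6 with higher and 2 with lower values in KO, beside 10.6% of all genes tested. With DESeq2 10 members passed that unadjusted threshold, beside 1789 of 15438 genes. The edgeR count of 8 became 3 without KO replicate 2 (1619 of 15651 genes) and 4 without Control replicate 1 (1105 of 15631). It was 5 without Control replicate 2 or 4 (1261 of 15638 and 1262 of 15604), and 4 with scaling to neuron markers (1584 of 15438). It rose to 11 without KO replicate 3 (1619 of 15678) and to 10 without KO replicate 4 (2168 of 15659). Groups did not overlap for 3 members on the higher side, Nlgn3, Lrrtm3 and Slitrk4, beside 3.01% of all genes, and for 2 on the lower side, Dlgap3 and Shank3, beside 2.91% of all genes. The members had 17 positive and 20 negative fold changes with a median log2 fold change of -0.01, against a median of 0.02 and 53.8% positive over all genes tested. The 17 positive became 13 when libraries were scaled to neuron markers and 22 without KO replicate 4.

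The targeted gene Cic measured 34.5 to 59.3 CPM (counts scaled to a common library size) in the KO libraries and 72.4 to 103 CPM in the Control libraries, with no overlap. It was called lower in KO (adjusted p = 0.00220 by edgeR, at a log2 fold change of -1.10 with SE 0.21). Gene counts per library were 33223878 to 49587839 in KO and 38171319 to 57300362 in Control, and every member had at least 26 counts in each library. Markers of the Otp lineage and its region had positive fold changes in 8 of 8 cases, with 0 called and a summed level of 1122 to 2032 CPM in KO libraries, against 982 to 1042 CPM in Control libraries (exact two-sided permutation p = 0.0286, the smallest that 4 against 4 can give). Sst, Avp and Oxt made up most of that sum, with means of 727, 329 and 317 CPM in KO, and each overlapped between the groups. Of the 8 markers only Nhlh2 did not overlap, so the p speaks for the sum and not for each marker. Otp itself was low, at 2.69 to 8.55 CPM in KO libraries, against 2.28 to 5.01 CPM in Control libraries. All 14 markers of oligodendrocytes and their precursors had negative fold changes, with sums of 1689 to 3110 CPM in KO libraries, against 2676 to 3368 CPM in Control libraries (exact permutation p = 0.143), and 1 of them was called lower. Of 10 microglia markers 9 were negative, with sums of 12.2 to 29.2 CPM in KO libraries, against 13.5 to 51.1 CPM in Control libraries. Astrocyte markers were negative in 6 of 10 cases (sums of 1274 to 1733 CPM in KO libraries, against 1318 to 1740 CPM in Control libraries), and endothelial and mural markers in 5 of 10 (9.65 to 24.8 CPM in KO libraries, against 10.1 to 38.7 CPM in Control libraries). Neuron markers were positive in 10 of 15 cases, with sums of 14932 to 18919 CPM in KO libraries, against 14612 to 16818 CPM in Control libraries. Snap25 made up most of that sum, with means of 11528 CPM in KO and 10610 CPM in Control. No marker of these lists was at 0 in all libraries, and the part of these shifts in the results below was not tested. In such bulk samples fewer cells of a type and less RNA per cell cannot be told apart.

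Read per kilobase of exon, the postsynaptic scaffold Shank1 and the secreted organizer Cbln1 stood at the top. The length used counts all annotated exons of a gene, 13.25 kb for Dlg4 and 3.04 kb for Cbln1. Which transcripts were expressed was not measured, so the order of genes, here and below, depends on that length. Shank1 had 60.7 ± 22.8 CPM per kb in KO and 65.6 ± 6.96 CPM per kb in Control (mean ± SD, n = 4 each, as throughout). Cbln1 had 56.3 ± 5.81 CPM per kb in KO and 53.5 ± 6.82 CPM per kb in Control, which overlapped the Shank1 values. Dlg4, which encodes PSD-95, followed with 36.4 ± 5.34 CPM per kb in KO and 43.1 ± 2.94 CPM per kb in Control. At the bottom were the axonal adhesion gene Cntn5, the X-linked Il1rapl1 and Homer3, the last with 0.284 ± 0.0463 CPM per kb in KO and 0.353 ± 0.167 CPM per kb in Control. For Homer3, 25.4% of exon sequence is shared with Ddx49 on the opposite strand, so its few reads are uncertain.

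**Figure D1:**
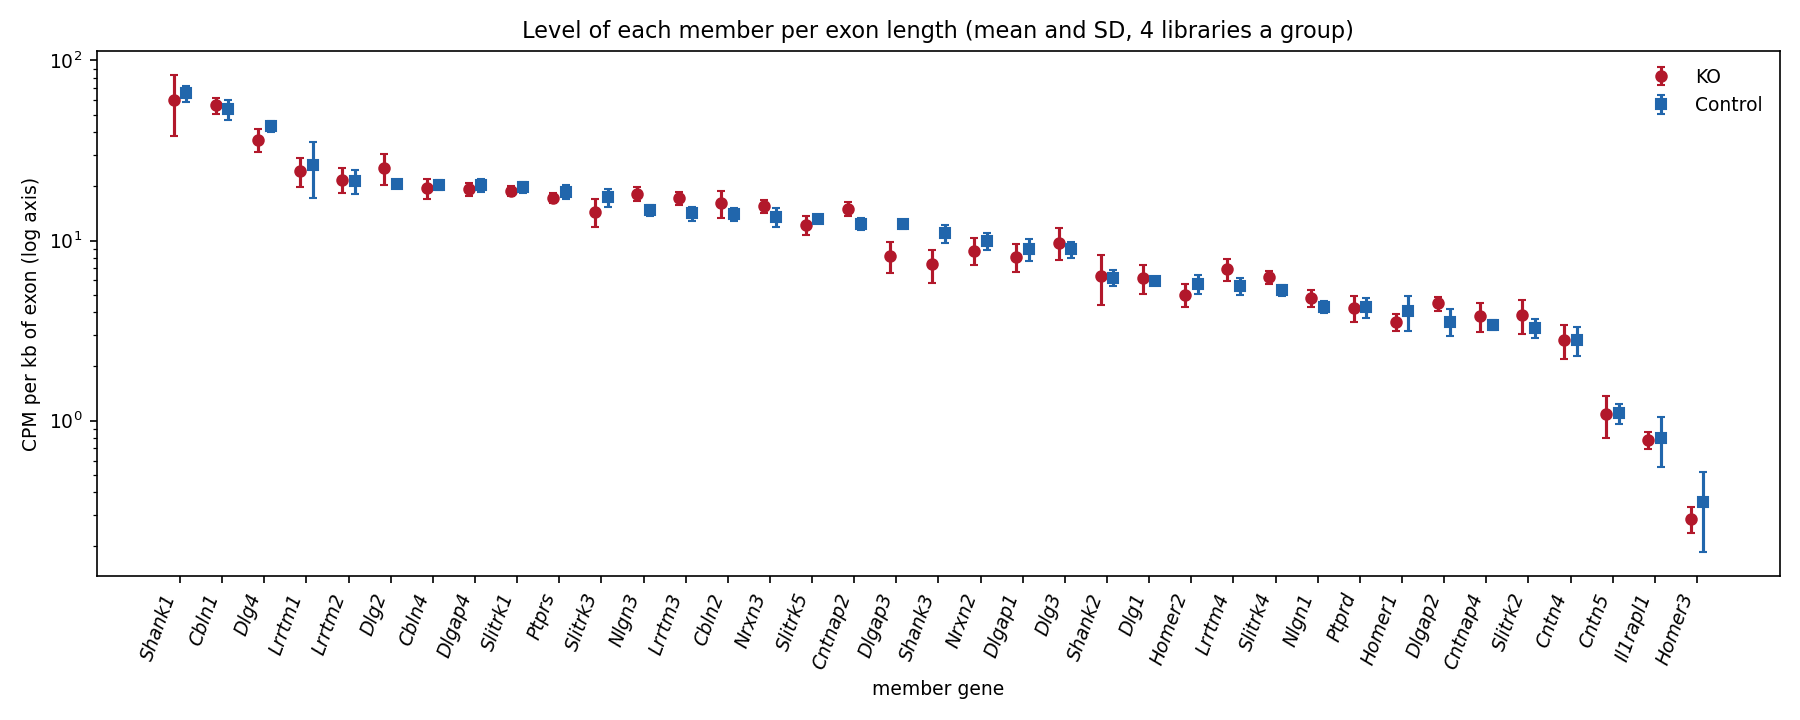
Level of each of the 37 genes as CPM per kb of exon on a log axis, in KO (circles) and Control (squares), with mean and SD of 4 libraries a group. Levels run from Shank1 (60.7 in KO, 65.6 in Control) down to Homer3 (0.284 in KO, 0.353 in Control), and the groups lie close together for most genes.

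Among axonal and presynaptic molecules, 3 of 8 had positive and 5 negative fold changes (median log2 fold change -0.01), with 0 called. Cntnap2, whose protein clusters potassium channels on axons, had 161, 165, 158 and 133 CPM in KO replicates 1 to 4, against 127, 119, 140.3 and 120.3 CPM in Control replicates 1 to 4. Of the KO libraries, 3 lay above every Control library, and KO replicate 4 lay below Control replicate 3. The log2 fold change was 0.28 (SE 0.09, adjusted p = 0.376 by edgeR). Nrxn3, a neurexin, had 195 ± 15.7 CPM in KO and 170.2 ± 21.2 CPM in Control (log2 fold change 0.20, 95% interval -0.08 to 0.47). Nrxn2 had 121 ± 20.8 CPM in KO and 137 ± 14.1 CPM in Control (log2 fold change -0.18, 95% interval -0.55 to 0.20). The receptor phosphatases, which bind SLITRK proteins and IL1RAPL1, lay near no difference. Ptprd had 96.1 ± 15.7 CPM in KO and 97.2 ± 12.9 CPM in Control (log2 fold change -0.02, 95% interval -0.39 to 0.35). Ptprs had 259 ± 16.9 CPM in KO and 279.5 ± 23.8 CPM in Control (log2 fold change -0.11, 95% interval -0.30 to 0.08). Cntnap4, a relative of Cntnap2, and the contactins Cntn4 and Cntn5, GPI-anchored adhesion molecules of axons, had log2 fold changes of 0.16, -0.003 and -0.01. Per kb, Ptprs was the highest of this role in Control (18.6 ± 1.59 CPM per kb, with 17.3 ± 1.13 in KO) and Cntn5 the lowest (1.09 ± 0.282 CPM per kb in KO, with 4.93 ± 1.28 CPM in KO and 4.97 ± 0.641 CPM in Control before division by length).

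The secreted cerebellins, which bridge neurexins to delta glutamate receptors, showed no difference that passed. Cbln1 had 191, 153, 180.5 and 159 CPM in KO replicates 1 to 4, against 160.5, 171, 184 and 135 CPM in Control. The groups overlapped, with KO replicate 1 the highest and Control replicate 4 the lowest (log2 fold change 0.07, 95% interval -0.22 to 0.37, and -0.0006 with scaling to neuron markers). Cbln2 had 46.6 ± 8.04 CPM in KO and 40.5 ± 3.28 CPM in Control, with 3 KO libraries above every Control library and KO replicate 4 below all of them. Cbln4 had 62.9, 52.5, 63.0 and 48.7 CPM in KO, against 59.1, 60.4, 63.0 and 53.6 CPM in Control, with overlap.

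Of the 12 postsynaptic adhesion genes, 7 had positive and 5 negative fold changes (median log2 fold change 0.09). At an unadjusted p of 0.05, 3 passed (25.0%), all on the higher side, beside 10.6% of all genes tested on either side. Nlgn3, a neuroligin found at excitatory and inhibitory synapses, had 155, 184, 179 and 156 CPM in KO replicates 1 to 4, against 132, 129, 150.4 and 136 CPM in Control. Every KO library was above every Control library, with the lowest KO library just over Control replicate 3. The log2 fold change was 0.30 (SE 0.08, 95% interval 0.10 to 0.50, adjusted p = 0.340 by edgeR). Its relative Nlgn1, of excitatory synapses, had 64.2 ± 6.80 CPM in KO and 57.5 ± 4.44 CPM in Control with overlap (log2 fold change 0.16, adjusted p = 0.707 by edgeR).

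The LRRTM proteins are leucine-rich partners of neurexins and of heparan sulfate. Lrrtm3 had 67.9, 81.6, 69.8 and 74.5 CPM in KO replicates 1 to 4, against 63.5, 52.2, 61.2 and 63.8 CPM in Control, again with no overlap (adjusted p = 0.375 by edgeR, at a log2 fold change of 0.29 with SE 0.09). Lrrtm4 had 33.8, 46.9, 43.8 and 45.5 CPM in KO, against 33.9, 30.3, 39.3 and 33.6 CPM in Control. There 3 KO libraries stood above all Control libraries and KO replicate 1 stood among them (adjusted p = 0.416 by edgeR, at a log2 fold change of 0.31 with SE 0.13). Lrrtm1 and Lrrtm2 did not show this. Lrrtm1 had a wide spread, 55.2 to 86.5 CPM in KO libraries, against 48.2 to 108 CPM in Control libraries, with a 95% interval for the log2 fold change of -0.83 to 0.62. Lrrtm2 had 131 ± 20.8 CPM in KO and 128 ± 19.3 CPM in Control.

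The SLITRK proteins bind receptor phosphatases, and their genes lay on both sides. Slitrk4 had 52.4, 61.3, 53.7 and 50.9 CPM in KO, against 45.1, 43.3, 50.4 and 46.3 CPM in Control (adjusted p = 0.485 by edgeR, at a log2 fold change of 0.24 with SE 0.07). Its groups touched without overlap, at 50.9 CPM in KO replicate 4 and 50.4 CPM in Control replicate 3. Slitrk3, which acts at inhibitory synapses, had 57.1, 75.0, 85.0 and 63.9 CPM in KO, against 92.2, 71.0, 83.2 and 89.9 CPM in Control. Its groups overlapped (adjusted p = 0.519 by edgeR, at a log2 fold change of -0.26 with SE 0.15). Slitrk1, Slitrk2 and Slitrk5 had log2 fold changes of -0.07, 0.23 and -0.11, and Il1rapl1 had 7.29 ± 0.777 CPM in KO and 7.47 ± 2.34 CPM in Control. Per kb, Lrrtm1 was the highest of the postsynaptic adhesion genes (24.3 ± 4.36 CPM per kb in KO and 26.1 ± 8.95 in Control), and Il1rapl1 the lowest (0.780 ± 0.0832 in KO and 0.799 ± 0.250 in Control).

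**Figure D2:**
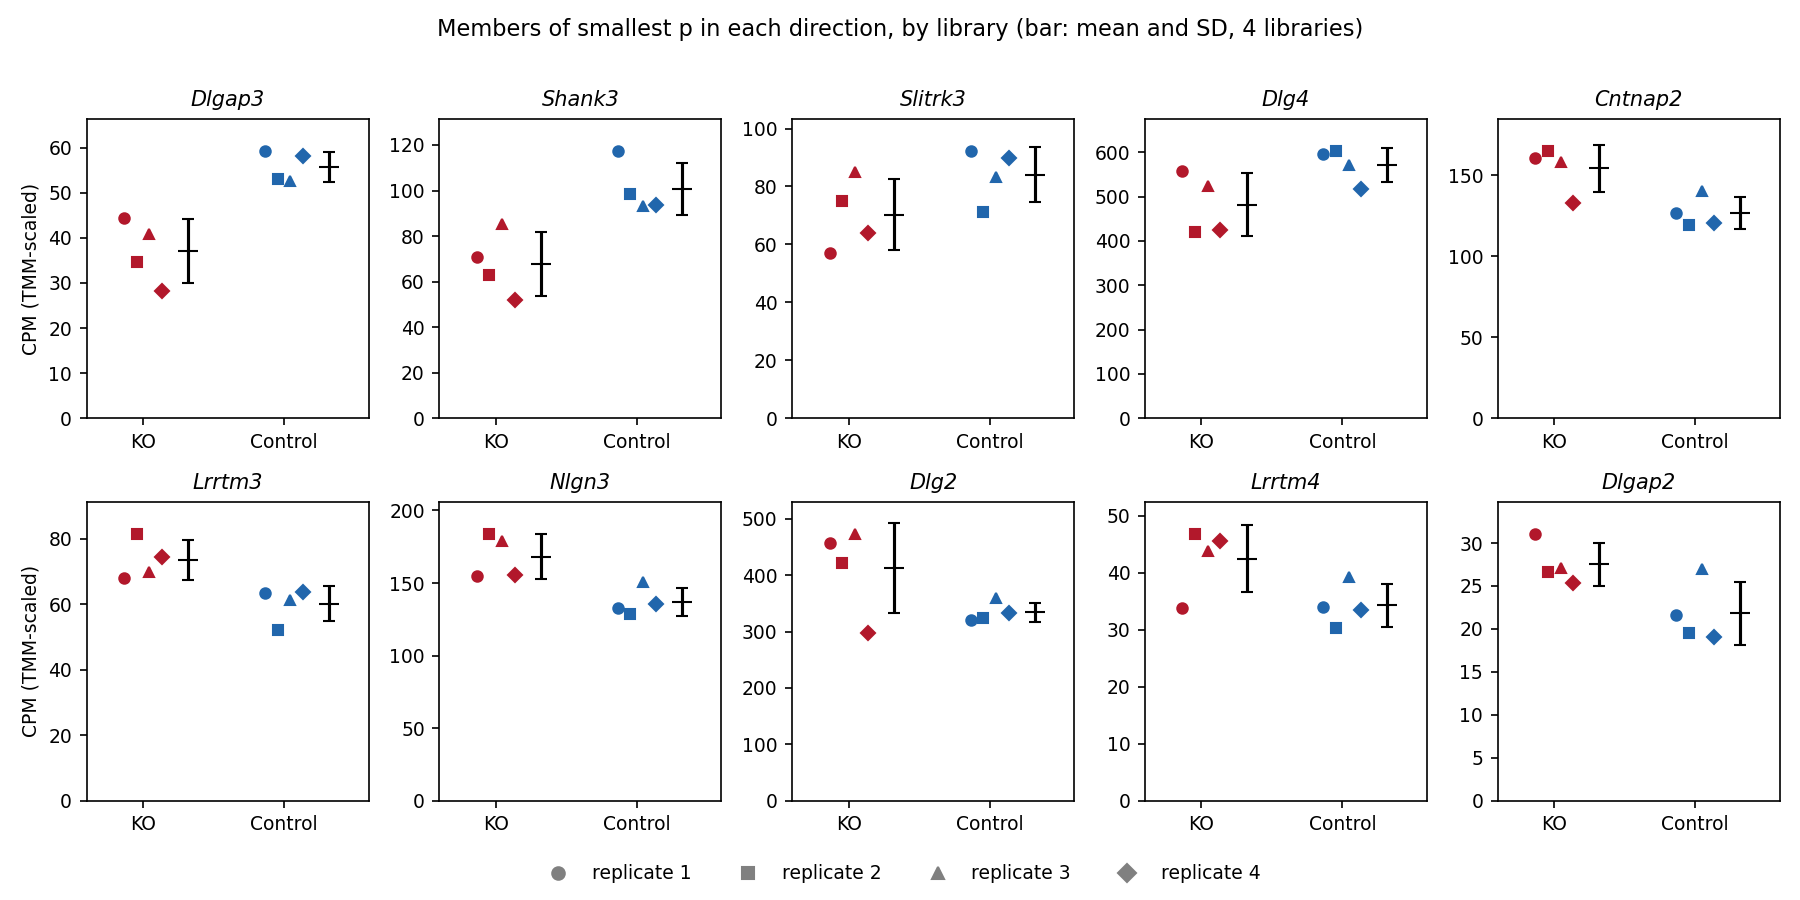
CPM of the 8 genes at an unadjusted p of 0.05 with Slitrk3 and Dlg4, 1 panel a gene, KO left of Control, with 1 symbol a library and the mean and SD of 4 libraries beside it. Dlgap3 and Shank3 lie lower in every KO library, Nlgn3 and Lrrtm3 higher in every KO library, and the other 6 overlap.

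The scaffold genes held the largest differences among the 37 in the direction of lower values. Dlgap3, also called SAPAP3, had 44.5, 34.7, 40.8 and 28.2 CPM in KO replicates 1 to 4, against 59.3, 53.1, 52.5 and 58.1 CPM in Control replicates 1 to 4. All KO libraries lay below all Control libraries, and KO replicate 4 was the lowest. The means were 37.1 ± 7.14 CPM in KO and 55.7 ± 3.41 CPM in Control (adjusted p = 0.0875 by edgeR, at a log2 fold change of -0.59 with SE 0.15 and a 95% interval of -0.96 to -0.22). The edgeR adjusted p was 0.0434 without KO replicate 1 and 0.0429 with scaling to neuron markers, the DESeq2 adjusted p was 0.00998, and the highest over the 15 alternatives was 0.348.

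Shank3 had 70.8, 62.9, 85.2 and 51.9 CPM in KO replicates 1 to 4, against 117, 98.5, 93.1 and 93.5 CPM in Control. KO replicate 3 came nearest to the Control libraries, and KO replicate 4 was again the lowest. The means were 67.7 ± 14.0 CPM in KO and 101 ± 11.4 CPM in Control (adjusted p = 0.112 by edgeR, at a log2 fold change of -0.57 with SE 0.17 and a 95% interval of -0.99 to -0.16). The edgeR adjusted p was 0.0470 without KO replicate 3, the DESeq2 adjusted p was 0.0159, and the highest over the 15 alternatives was 0.452. In mice, loss of either gene is known to cause excessive self-grooming, and both genes are abundant in the striatum.

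Markers of neurons of the striatum, cortex and hippocampus were set beside these values, from lists chosen after the values of Dlgap3 and Shank3 were seen. Of 10 striatal markers 5 had negative and 5 positive fold changes, with sums of 535 to 684 CPM in KO libraries, against 508 to 579.8 CPM in Control libraries. Of 10 markers of cortical and hippocampal pyramidal neurons 9 were tested, 6 negative and 3 positive, with sums of 621 to 956 CPM in KO libraries, against 623 to 904 CPM in Control libraries. Camk2a made up most of that sum, with a mean of 503 CPM in KO and 467 CPM in Control, and the other genes of the list did not all lie on its side. Slc17a7, the vesicular glutamate transporter of these neurons, had 22.7 to 72.2 CPM in KO libraries, against 44.7 to 118 CPM in Control libraries (log2 fold change -0.71). The transcription factor genes Neurod6 and Neurod2 had log2 fold changes of -0.97 and -0.48, with means of 4.24 CPM in KO and 8.28 CPM in Control for Neurod6. Neurod6 was the only gene of the pyramidal list at an unadjusted edgeR p of 0.05 (adjusted p = 0.374), and its groups overlapped. Emx1, the untested gene, was at 0 to 0.148 CPM in KO libraries, against 0.0265 to 0.851 CPM in Control libraries. The striatal list had a median log2 fold change of 0.01, and Penk and Tac1 made up most of its sum. Its lowest log2 fold changes were those of Adora2a (-0.66) and Ppp1r1b (-0.48), both with overlapping groups. Adora2a was low, at 1.01 to 7.21 CPM in KO libraries, against 2.07 to 7.25 CPM in Control libraries. On the positive side, Penk and Pde10a had log2 fold changes of 0.235 and 0.195. Rgs9 had 12.6 to 19.0 CPM in KO libraries, against 10.4 to 11.8 CPM in Control libraries, with no overlap (adjusted p = 0.373 by edgeR). These genes were picked out after their values were seen, and the part of such neurons in the values of Dlgap3 and Shank3 was not tested.

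Dlgap3 (ENSMUSG00000042388.14) spans positions 127169204 to 127237022 of chromosome 4 in GRCm38, and Shank3 (ENSMUSG00000022623.16) positions 89499623 to 89560261 of chromosome 15, both read on the plus strand. Of the 37 members 4 lie on chromosome 7 with Cic, the nearest, Shank1, 19.0 Mb away. On the X chromosome lie Nlgn3, Slitrk4, Dlg3, Slitrk2 and Il1rapl1, and the sex of the mice is not given in the labels. The promoter windows of Dlgap3 and Shank3 are shown because these genes differed most. Each is 300 bases, 250 before and 50 after a RefSeq start on GRCm38.p6, read 5′ to 3′ on the plus strand. They were searched for the octamers known to bind Capicua, TGAATGAA, TGAATGGA, TCAATGAA and TCAATGGA, on both strands, and any match would be in capitals.
Dlgap3, chr4:127172630-127172929: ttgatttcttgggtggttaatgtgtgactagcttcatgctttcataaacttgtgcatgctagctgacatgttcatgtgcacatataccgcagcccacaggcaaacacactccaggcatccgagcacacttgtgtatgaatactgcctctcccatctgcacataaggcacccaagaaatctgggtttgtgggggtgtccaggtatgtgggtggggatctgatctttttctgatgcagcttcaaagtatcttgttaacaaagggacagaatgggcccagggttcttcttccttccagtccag
Shank3, chr15:89499358-89499657: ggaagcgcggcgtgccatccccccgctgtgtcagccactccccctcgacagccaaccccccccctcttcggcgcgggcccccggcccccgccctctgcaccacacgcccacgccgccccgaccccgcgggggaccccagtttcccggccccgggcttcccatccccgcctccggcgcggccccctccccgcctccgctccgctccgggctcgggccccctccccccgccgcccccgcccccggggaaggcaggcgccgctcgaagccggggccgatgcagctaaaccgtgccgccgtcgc
Neither window holds a match, which says only that these letters are not in these 300 bases. The windows differ in composition, with 47.7% G or C for Dlgap3 and 81.0% for Shank3, against a median of 52.7% over all 32851 windows.

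RefSeq windows were found for 26 members, and 3 of these members hold an octamer (11.5%). The share was 2.95% of the 11659 tested genes with a window and 4.45% of all 27025 genes with one. These 26 members have 46 windows, against 32851 windows for the 27025 genes, and more windows per gene give more places for a match. With 3 matching genes, no excess is read from these shares. Counted by window, a match stands in 3 of 46 for the members (6.52%) and in 3.84% of all windows. The 3 matching stretches of 60 bases are shown with the octamer in capitals, so that their place and strand can be read. In Nrxn3 it begins 117 bases before the start, in Dlg1 42 and in Dlgap1 98, in 1 of 3 windows for Nrxn3, 1 of 4 for Dlg1 and 1 of 2 for Dlgap1.
Nrxn3, chr12:88794361-88794420, plus strand: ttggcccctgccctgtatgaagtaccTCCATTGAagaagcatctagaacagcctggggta
Dlg1, chr16:31695480-31695539, plus strand: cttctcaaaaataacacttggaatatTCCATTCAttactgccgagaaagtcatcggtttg
Dlgap1, chr17:70561623-70561682, plus strand: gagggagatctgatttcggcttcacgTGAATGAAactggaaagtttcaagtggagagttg
The octamers in Nrxn3 and Dlg1 are the reverse complements of TCAATGGA and TGAATGGA, and Dlgap1 holds TGAATGAA as written. None of these 3 genes passed an unadjusted p of 0.05, with log2 fold changes of 0.20 for Nrxn3, 0.05 for Dlg1 and -0.14 for Dlgap1.

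**Figure D3:**
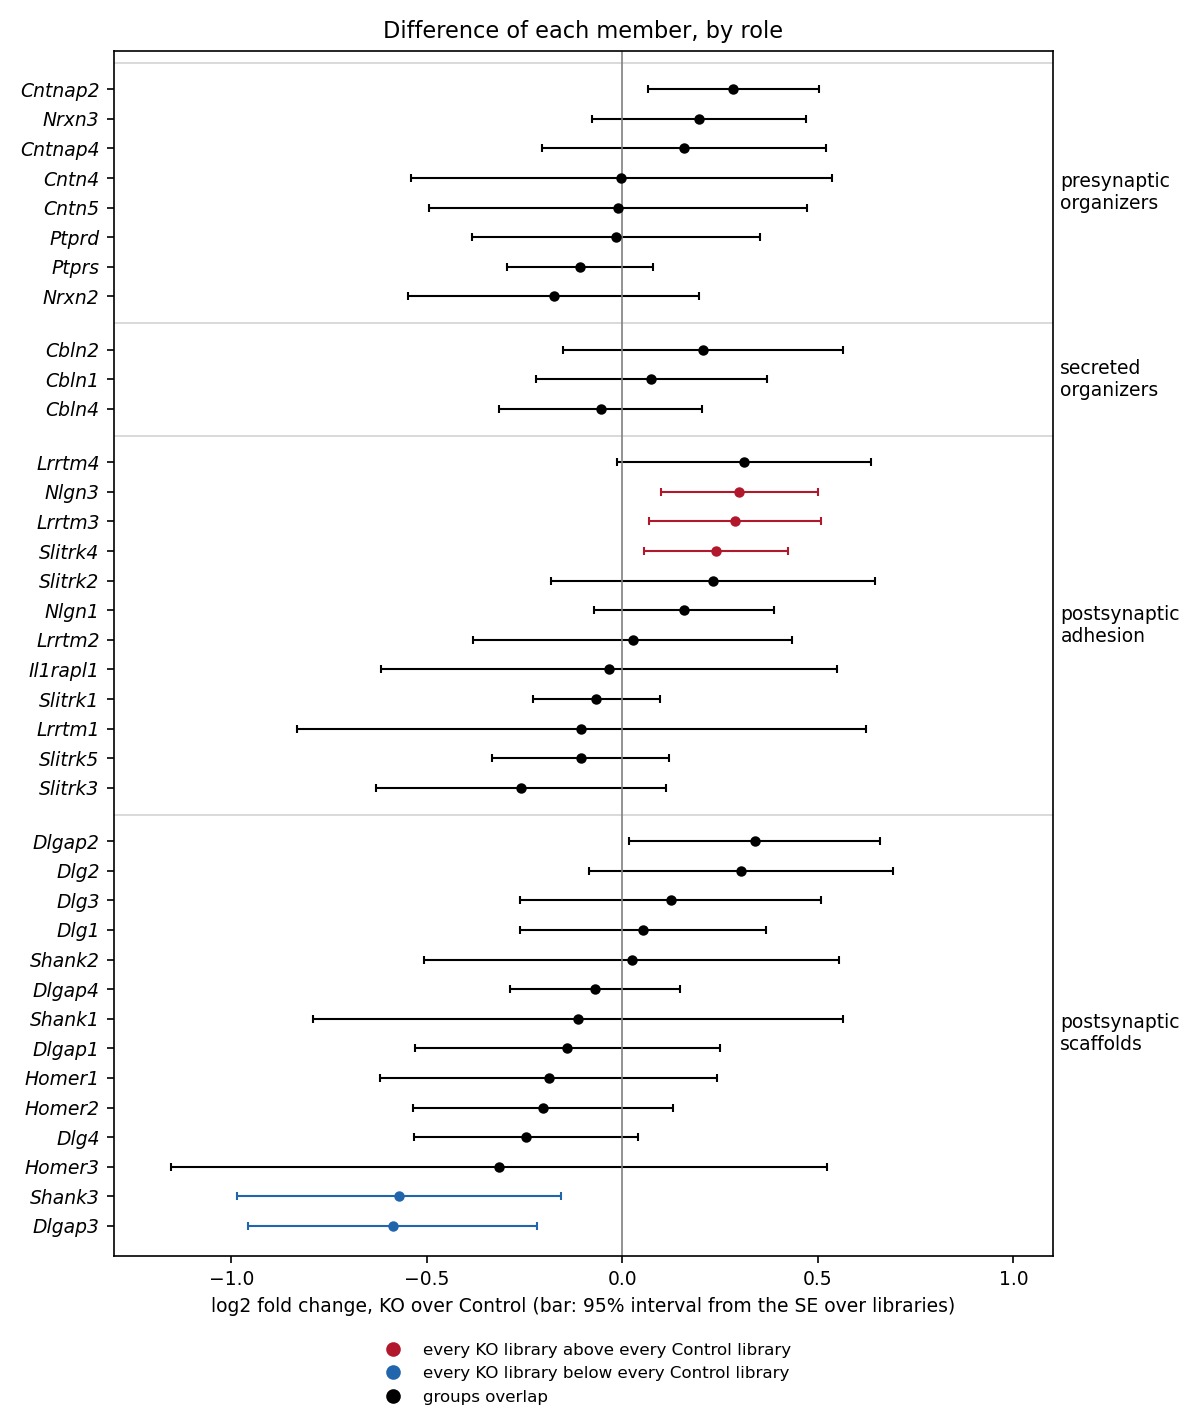
Log2 fold change, KO over Control, of each of the 37 genes with its 95% interval from the SE over libraries, grouped by role. Dlgap3 (-0.59) and Shank3 (-0.57) stand lowest, and most other intervals include 0.

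Of the 14 scaffold genes 5 had positive and 9 negative fold changes (median log2 fold change -0.13). At an unadjusted p of 0.05, 2 passed on each side (28.6% of the 14), beside 10.6% of all genes tested. The other Shank genes had differences smaller than their spread. Shank1 had 599.6, 590.3, 968 and 394 CPM in KO replicates 1 to 4, against 749, 679, 742 and 591 CPM in Control. KO replicate 3 was above and KO replicate 4 below every Control library (log2 fold change -0.11, 95% interval -0.79 to 0.56). Shank2 followed the same libraries, with KO replicate 3 highest at 98.3 CPM and the other KO libraries at 53.5 to 66.9 CPM, against a mean of 67.1 ± 6.60 CPM in Control.

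In the Dlg family, whose proteins anchor receptors and adhesion molecules, the most abundant members lay on opposite sides. Dlg2, also called PSD-93, had 457, 422, 474 and 297 CPM in KO, against 321, 325, 359 and 333 CPM in Control. There 3 KO libraries were above and KO replicate 4 below all Control libraries (adjusted p = 0.432 by edgeR, at a log2 fold change of 0.30 with SE 0.16, with a lowest value of 0.0762 over the alternatives, reached without KO replicate 4). Dlg4 had 559, 419.8, 525 and 424 CPM in KO, against 596, 603, 571 and 517 CPM in Control. Of the KO libraries 2 lay under every Control library, and the groups overlapped (adjusted p = 0.496 by edgeR, at a log2 fold change of -0.25 with SE 0.12). The remaining Dlg genes, Dlg1 and Dlg3, had log2 fold changes of 0.05 and 0.12.

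Within the Dlgap family Dlgap2 lay on the other side from Dlgap3. Dlgap2 had 31.1, 26.6, 27.1 and 25.3 CPM in KO, against 21.6, 19.5, 27.0 and 19.1 CPM in Control, where replicate 3 reached into the KO range (adjusted p = 0.411 by edgeR, at a log2 fold change of 0.34 with SE 0.13). Dlgap1 had 145 ± 25.9 CPM in KO and 159.9 ± 22.7 CPM in Control, and Dlgap4 had 163 ± 14.3 CPM in KO and 171 ± 14.8 CPM in Control. The Homer genes had negative fold changes without a call, though that of Homer3 was 0.02 when Control replicate 4 was left out. Homer1 had 42.4 ± 4.58 CPM in KO and 48.3 ± 10.6 CPM in Control, counts that do not separate its short, activity-induced form from the long forms. Homer2 had 63.2 ± 9.02 CPM in KO and 72.7 ± 9.04 CPM in Control (log2 fold change -0.20, 95% interval -0.54 to 0.13). Per kb, Shank1 was the highest and Homer3 the lowest of the scaffold genes.

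Shares within a family do not depend on how libraries are scaled, since every paralog is read in the same library. They do depend on the exon lengths used, which count all annotated exons. Each family here holds only the listed members, so Slitrk6, Cbln3, Dlg5 and Dlgap5 are not in the sums. Of 26 shares in 7 families, 5 did not overlap between the groups, 2 higher and 3 lower in KO, beside 3.01% higher and 2.91% lower for the levels of all single genes, which is another measure. These are given as a description with no test, and shares of 1 family depend on each other. Dlg4 made up 44.2% to 48.7% of the Dlg level per kb in KO and 51.9% to 57.8% in Control, while Dlg2 made up 27.8% to 36.1% in KO and 24.6% to 27.4% in Control. Dlgap3 made up 17.6% to 24.4% of the Dlgap level in KO and 26.02% to 29.2% in Control. The summed Dlg level was 77.6 ± 11.2 CPM per kb in KO and 78.6 ± 2.36 CPM per kb in Control, and neither Dlg4 nor Dlg2 passed the test of its own level. Shank3 made up 8.39% to 11.74% of the Shank level in KO and 11.70% to 14.1% in Control, which overlapped at the edge. The remaining shares without overlap were those of Slitrk4 among Slitrk genes (9.98% to 12.8% in KO and 8.71% to 9.37% in Control) and Cbln4 among cerebellins (20.6% to 22.3% in KO and 22.5% to 23.6% in Control).

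**Figure D4:**
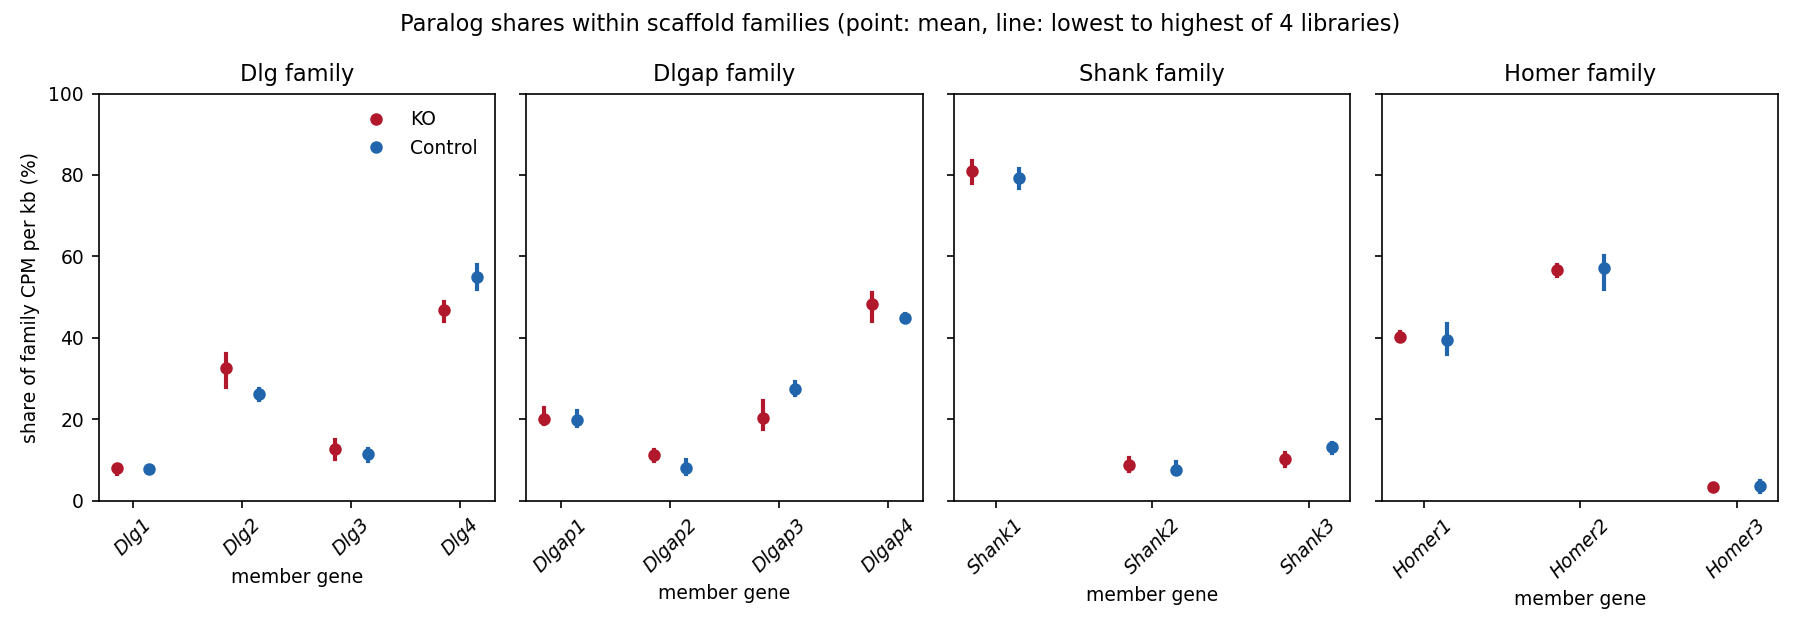
Share of each paralog in its family's summed CPM per kb, in percent, for the Dlg, Dlgap, Shank and Homer families, with the mean as a point and the lowest to highest of 4 libraries as a line, KO left of Control. Families hold only the listed members. Dlg4 (46.9% in KO, 54.9% in Control) and Dlgap3 (20.4% in KO, 27.4% in Control) are lower and Dlg2 (32.5% in KO, 26.1% in Control) higher in KO with no overlap.

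Libraries differed among themselves across the 37 genes. KO replicate 4 was the lowest of its group for 16 of 37 genes, and Control replicate 2 the lowest of its group for 23. The median deviation of the members from their own mean log2 CPM was 0.109 in KO replicate 3 and -0.091 in KO replicate 4, and it was -0.182 in Control replicate 2, while over all genes tested it stayed between -0.023 and 0.009 in all 8 libraries. By locus, 19 members span at least 100 kb and 18 less. The long ones had 10 positive and 9 negative fold changes (median log2 fold change 0.02), with 5 at an unadjusted p of 0.05, all on the higher side: Cntnap2, Dlg2, Dlgap2, Lrrtm3 and Lrrtm4. Among the 14844 tested genes matched to 1 annotated locus, 9.78% of the 2270 that span at least 100 kb passed that threshold on the higher side and 3.83% on the lower side. For the 12574 shorter ones these were 5.39% on the higher and 4.7% on the lower side, and nothing particular to the members is read from this count. The shorter ones had 7 positive and 11 negative (median log2 fold change -0.09), and held Dlgap3, Shank3 and Nlgn3.

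Of 56 other synaptic adhesion and organizer genes, all tested, 29 had positive and 27 negative fold changes (median log2 fold change 0.02). Of these 0 were called by edgeR or DESeq2. At an unadjusted edgeR p of 0.05, 8 passed (14.3% of 56), 3 higher and 5 lower, beside 10.6% of all genes tested. With DESeq2 9 passed, beside 1789 of 15438 genes. The edgeR count was 3 without Control replicate 1, beside 1105 of 15631 genes. Flrt1, an adhesion partner of latrophilins, had 32.9, 36.4, 44.5 and 31.1 CPM in KO, against 27.0, 20.9, 31.0 and 25.6 CPM in Control, touching at 31.1 CPM in KO and 31.0 CPM in Control without overlap (adjusted p = 0.230 by edgeR, at a log2 fold change of 0.47 with SE 0.16). Lrrc4, a netrin-G ligand that binds PSD-95, had 48.0, 39.7, 45.9 and 41.8 CPM in KO, against 55.9, 53.4, 55.5 and 59.2 CPM in Control. Its groups did not overlap (adjusted p = 0.261 by edgeR, at a log2 fold change of -0.35 with SE 0.07). C1ql1, a secreted organizer related to cerebellins, had 29.0 ± 5.86 CPM in KO and 20.9 ± 2.70 CPM in Control (edgeR adjusted p = 0.264).

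Of 43 other scaffold and signalling genes of the postsynaptic density, 28 had positive and 15 negative fold changes (median log2 fold change 0.04). Of these 0 were called by edgeR or DESeq2, and 7 passed an unadjusted p of 0.05 with either tool, 6 higher and 1 lower with edgeR. That is 16.3% of 43, beside 10.6% of all genes tested with edgeR. The edgeR count was 2 without KO replicate 3 (1619 of 15678 genes) and 9 without KO replicate 4 (2168 of 15659). It was 3 without KO replicate 1 (1730 of 15682) or Control replicate 1 (1105 of 15631). With neuron marker scaling (1584 of 15438) or upper-quartile scaling (1612 of 15438) it was also 3. Magi1, a scaffold of the same protein class as Dlg, had 117 ± 19.4 CPM in KO and 91.1 ± 5.60 CPM in Control with no overlap (adjusted p = 0.295 by edgeR, at a log2 fold change of 0.36 with SE 0.12). Magi2 had 126 ± 19.8 CPM in KO and 103 ± 5.74 CPM in Control with overlap (edgeR adjusted p = 0.400). Synpo, an actin-binding protein of the spine apparatus, had 20.6, 25.2, 21.9 and 19.7 CPM in KO, against 26.7, 27.5, 27.9 and 29.97 CPM in Control. Every KO library lay under every Control library (adjusted p = 0.327 by edgeR, at a log2 fold change of -0.36 with SE 0.09).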

How the data were processed

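Ribosome-bound RNA was amplified from 10 ng with random and poly(A) priming and sequenced from double-stranded cDNA, per the labels' protocols, so strand is not marked. Each deposited table holds unnormalized counts by gene symbol. The submitters' processing notes name TopHat2 2.0.9, HTSeq, DESeq2 and the mm10 build; annotation and strand setting: not given in the sources used here. Spike-in rows (92) and counter rows (5) were left out. Spike-in counts were 0.0655%, 0.0569%, 0.395% and 0.0739% of gene counts in KO replicates 1 to 4. In Control replicates 1 to 4 they were 0.299%, 0.522%, 0.401% and 0.327% (exact two-sided permutation p = 0.0857). The part of this in the results was not tested. Of all records, 63.3% to 81.9% per library were alignments that were not unique, with the highest share in KO replicate 4. The 28 pairs of libraries had a chi-square per degree of freedom of at least 25.9, so none repeats another. Nothing says that libraries came from separate animals, and p-values then reflect only how these libraries vary, which may be technical. Counts carry no molecular identifiers.

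KO was tested against Control with edgeR 4.0.16 in R 4.3.3 (filterByExpr with a minimum count of 10 and minimum total of 15, TMM scaling, robust quasi-likelihood test, no covariate). Adjusted p is Benjamini-Hochberg over all 15438 genes tested, with a threshold of 0.05. CPM uses TMM-scaled library sizes. SE and the 95% interval come from group means of log2 CPM. Exon lengths are unions of GENCODE M21 exons. On simulated counts for the same genes, KO against Control recovered 23 of 50 genes changed 1.5-fold and 37 of 50 changed 2-fold. It also recovered 42 of 50 changed 3-fold and 43 of 50 changed 4-fold. Beside these stood 15 false calls among 15238 unchanged genes. Alternatives were other scalings, filters, DESeq2 1.42.0, a replicate block and leaving out each library. Full statistics are given for members at an unadjusted p of 0.05 and the 4 of smallest p in each direction, with the highest and lowest per kb in each role, for the 3 of smallest p in each further list, and for Slitrk4, added after its values were seen. Striatal and pyramidal neuron lists were added after values were seen. The members and lists were chosen with earlier results of these data known.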

Additional observations from a re-analysis of the deposited data

Results flagged for a closer look

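Cic in Control replicate 2, at 72.4 CPM, stood apart from the other 3 Control libraries at 100.5 to 103 CPM, and above the KO libraries at 34.5 to 59.3 CPM. The same library was the lowest of its group for 23 of the 37 synaptic genes. In this way 88 groups of 4 libraries were screened, over the 37 genes, Cic and the further genes named. This was the only 1 past the limit of the Dixon gap test (gap over range 0.926). By chance about 1 in 20 groups pass that limit, so 1 of 88 is not more than chance gives.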

How the results depend on the processing

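Over 15 alternatives, 0 members were called higher. The count called lower was 0 in the result as reported, 1 with neuron marker scaling (Dlgap3), 2 with DESeq2 (Dlgap3 and Shank3), and 0 to 1 when 1 library was left out (Dlgap3 without KO replicate 1, Shank3 without KO replicate 3). The count over all genes was 40, 200 with DESeq2 and 14 to 53 when 1 library was left out (26 without KO replicate 2, and 19, 17, 26 and 14 without Control replicates 1 to 4). With the replicate block it was 65, and 2 members were called lower, Dlgap3 (log2 fold change -0.61, edgeR adjusted p = 0.0494) and Shank3 (-0.59, adjusted p = 0.0491). Deviations of same-numbered libraries correlated at -0.048 to 0.1 and 2 of 8 libraries correlated best with their own number, so the numbers are not taken to pair mice. The log2 fold change of 13 of 37 members changed sign in at least 1 alternative, none of them past the threshold there, and 24 kept their sign in all 15. With neuron marker scaling it was -0.000567 for Cbln1, -0.0229 for Dlg1, -0.0318 for Lrrtm2 and -0.0425 for Shank2. With upper-quartile scaling it was -0.000883 for Lrrtm2 and -0.00673 for Shank2, and with the replicate block 0.0113 for Il1rapl1 and -0.018 for Shank2. Leaving out 1 library gave ranges of -0.0063 to 0.138 for Cbln1, -0.118 to 0.00481 for Cbln4, -0.123 to 0.122 for Cntn4, -0.211 to 0.0905 for Cntn5 and -0.0956 to 0.115 for Dlg1. They were -0.0307 to 0.188 for Dlg3, -0.506 to 0.0199 for Homer3, -0.184 to 0.169 for Il1rapl1, -0.285 to 0.079 for Lrrtm1 and -0.0791 to 0.108 for Lrrtm2. For Ptprd the range was -0.141 to 0.0521, for Shank1 -0.386 to 0.0536 and for Shank2 -0.206 to 0.117. The other synaptic adhesion and scaffold genes had 0 calls in all of them. The cause of these differences between settings was not tested. In the simulated counts 23 of 50 genes changed 1.5-fold were recovered. Those genes were drawn from all tested genes, at any level, so the share need not hold for a given member.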
